A study of Mus musculus with 24 samples.

Results

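The response of the liver to ethanol feeding ended by a binge was compared between a long and a short feeding period. The comparison took, for every gene, the difference between ethanol-plus-binge and pair-fed livers after 8 weeks of feeding and subtracted the same difference after 10 days, so that a positive value marks an effect that was higher after 8 weeks and a negative value one that was lower. The groups were chosen by sample title, and 15 of the 24 liver samples of the series belong to them. All are livers of males of the inbred C57BL/6N strain, pair fed for 8 weeks (n = 4), fed ethanol for 8 weeks with 1 binge (n = 5), pair fed for 10 days (n = 3) or fed ethanol for 10 days with 1 binge (n = 3). A binge was 5 g of ethanol per kg, and pair-fed animals receive a control diet matched to the intake of ethanol-fed ones. The labels give no group that was fed ethanol for 10 days without a binge, so feeding and binge cannot be separated at 10 days. A group fed ethanol for 8 weeks without a binge exists in the series but is not part of this comparison. Feeding and binge are therefore taken as 1 treatment at both lengths. They do not say whether the replicates of a group are separate animals, and p-values then measure only the spread between these samples, which may be technical.

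Feeding ethanol over weeks, followed by a large dose by gavage, is a mouse model in which fat accumulation, raised transaminases and neutrophil infiltration develop in the liver. Hepatocytes oxidise ethanol with alcohol dehydrogenases, CYP2E1 and catalase, and the change in redox state that follows slows the oxidation of fatty acids and favours their storage. Fatty acids are stored in lipid droplets, are oxidised under the control of the nuclear receptor PPAR-alpha, and are made under the control of the transcription factor SREBP-1c, whose gene is Srebf1. Cidec, also called fat-specific protein 27 and named in the title of the series, joins small lipid droplets into large ones.

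Each array carried the Cy5-labelled cDNA of 1 liver and a Cy3-labelled reference, and a level below is the log2 ratio of Cy5 over Cy3. An effect is a difference of mean levels, ethanol plus binge minus pair-fed, and the difference between the effects is on the same log2 scale, where a value of 1 is a factor of 2. The median Cy5 intensity of the 15 arrays lay between 95.5 and 238 units, and 72.5% to 86.7% of the probes were well above background in that channel. All arrays of the 8-week groups were scanned together and all arrays of the 10-day groups in a second scan. Each effect was therefore measured within 1 scan, while scan and feeding length cannot be told apart in the difference between the effects or in any level set across the lengths. For the reference the labels give both assorted mouse RNA from a supplier and liver tissue, so its makeup is uncertain. In the Cy3 channel alone, meant to be the same on every array, limma called 0 genes for the difference between the effects, with 337 genes at an unadjusted p under 0.05. The 9 hepatocyte markers that could be tested were well above background on all 15 arrays. The 10-day binge array 1 correlated least with the other arrays of its own group. Its levels over all genes tested correlated with theirs at a median r of 0.49. The other 14 arrays correlated with their own groups at 0.55 to 0.74.

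The effect of ethanol plus a binge depended on the length of feeding for 521 of 15448 genes tested (3.37%), at a Benjamini-Hochberg adjusted p under 0.05 in limma. The effect was higher after 8 weeks for 147 genes (0.952%) and lower for 374 (2.42%), and the difference was at least 2-fold for 46 and 177 of them. For comparison, the 8-week effect was called for 2547 genes (16.5%), 1183 higher (7.66%) and 1364 lower (8.83%). The 10-day effect was called for 1094 genes (7.08%), 650 higher (4.21%) and 444 lower (2.87%). Over all genes tested the median was 0.024 for the 8-week effect, -0.0047 for the 10-day effect and 0.020 for their difference, and gene lists below are read against these shares and medians. Counts of calls at the 2 lengths also depend on the number of arrays, 4 and 5 at 8 weeks and 3 and 3 at 10 days. Of the 521 genes, 431 had effects of opposite sign at the 2 lengths and 47 were called in both effects. Genes with a lower effect after 8 weeks were mostly of 2 kinds, 170 that were called lower after 8 weeks with no call after 10 days and 152 that were called higher after 10 days with no call after 8 weeks. Of those with a higher effect after 8 weeks, 75 were called higher at 8 weeks alone and 49 lower at 10 days alone. Over all genes tested the 2 effects had a Pearson r of 0.39 and a Spearman rho of 0.28, a description across genes, which are not independent replicates, of comparisons that share no samples.

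**Figure D1:**
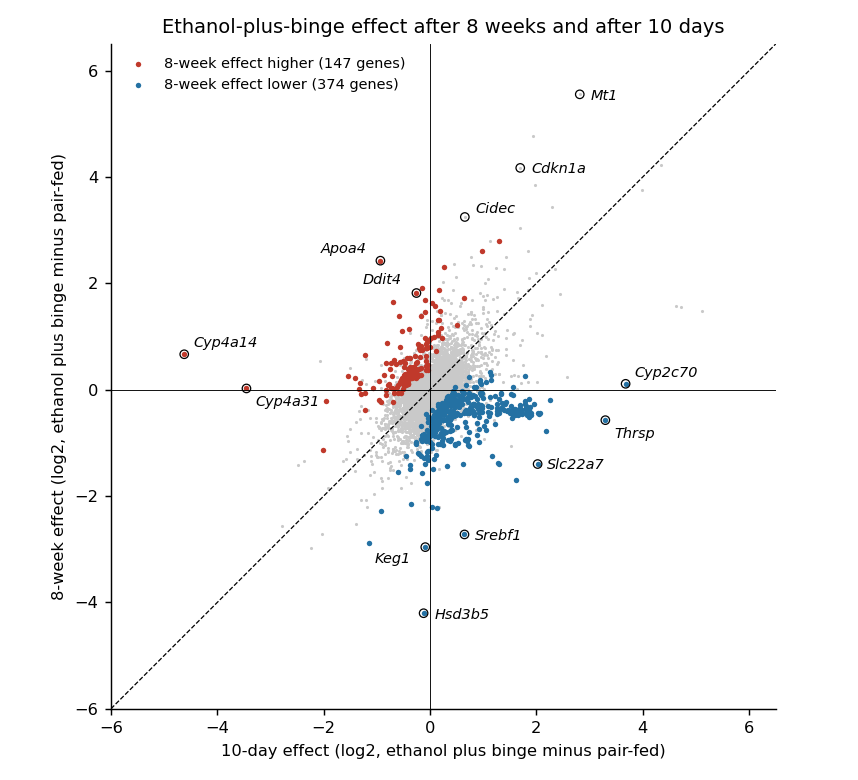
The 8-week effect (vertical axis) against the 10-day effect (horizontal axis) of each gene tested, both in log2 units; the dashed line marks equal effects. The 147 genes with a higher effect after 8 weeks (red) and the 374 with a lower one (blue) lie off the line, mostly where 1 of the effects is near 0, and Cidec, Mt1 and Cdkn1a lie above it without a call (grey).

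More of the lipid droplet genes were called higher after 8 weeks than after 10 days, and 3 of 17 were called for the difference. Cidec stood at -0.73, -2.91, -2.51 and -1.83 on the 8-week pair-fed arrays and at 0.22, 1.12, 2.07, 1.35 and 1.5 on the 8-week binge arrays, which did not overlap. On the 10-day arrays it stood at -1.52, 0.23 and -0.82 in pair-fed livers and at -2.40, 0.84 and 1.41 after the binge, with binge array 1 below every pair-fed array and the other 2 above them. Its 8-week effect was 3.25 (adjusted p = 0.000864) and its 10-day effect 0.65 (adjusted p = 0.741), and their difference of 2.59 ± 1.0 (SE, adjusted p = 0.183) did not pass the test. Without 10-day binge array 1 the 10-day effect was 1.83 (adjusted p = 0.12) and the difference 1.42 (adjusted p = 0.465).

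Plin5, a droplet coat protein of oxidative tissues, stood at -0.49, -0.50, -0.41 and -0.39 in pair-fed and 0.31, 1.05, 0.96, 0.87 and 0.41 in binge livers of the 8-week groups, with no overlap. At 10 days it stood at -0.48, -0.08 and -0.25 in pair-fed and -0.44, 0.018 and 0.24 in binge livers, and the groups overlapped. The difference between its effects was 0.96 ± 0.21 (SE, adjusted p = 0.0114). Pnpla2, the adipose triglyceride lipase that starts the breakdown of stored triglyceride, had effects of 1.15 at 8 weeks and -0.40 at 10 days, a difference of 1.55 ± 0.36 (SE, adjusted p = 0.0197), and its other probe gave 1.33. Plin4, another droplet coat, rose by 2.61 at 8 weeks and had an effect of 0.99 at 10 days, a difference of 1.62 ± 0.43 (SE, adjusted p = 0.0337). Of 17 droplet proteins and lipases tested, these 3 had a higher effect after 8 weeks and 0 a lower one. Of the 17, 9 rose at 8 weeks and 1 at 10 days. Without 10-day binge array 1, which stood apart for Cidec, 3 rose at 10 days, without 8-week pair-fed array 1 2, and without any 1 of the other 10-day arrays 0. The count called for the difference was 1 without 10-day pair-fed array 2 or 8-week pair-fed array 3. The median difference was 0.45 against 0.020 over all genes. Abhd5, the co-activator of the lipase, was not called for the difference (0.41 ± 0.16, SE, adjusted p = 0.196). The call of Pnpla2 was lost without 8-week pair-fed array 3 or 10-day pair-fed array 2 (adjusted p up to 0.0699), and that of Plin4 without any 1 of 8 of the 15 arrays (up to 0.128).

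Of the 3 largest positive differences, 2 belonged to Cyp4a enzymes, cytochromes P450 that hydroxylate fatty acids at the omega end and are classical targets of PPAR-alpha. They fell after 10 days with the binge and not after 8 weeks. Cyp4a14 stood at 0.87, 1.58 and 0.80 in 10-day pair-fed livers and at -3.23, -3.56 and -3.83 after the binge. In 8-week pair-fed livers it stood at -3.32, 0.28 and 1.1 (3 arrays measured), and after the binge at -0.54, 0.038, 0.021, 0.99 and -0.41. The 10-day groups were far apart, while the 8-week groups overlapped and pair-fed array 2 was as low as the 10-day binge arrays. The 10-day effect was -4.62 (adjusted p = 0.000274), the 8-week effect 0.67 (adjusted p = 0.558) and the difference 5.29 ± 0.96 (SE, adjusted p = 0.00217). With each array left out in turn the difference lay between 3.95 and 6.16, with an adjusted p of at most 0.0104.

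Cyp4a31 stood at 1.02, 1.28 and 1.04 in 10-day pair-fed livers and at -1.66, -2.36 and -3.0 after the binge, with no overlap. At 8 weeks the values were 0.07, -1.25, 0.16 and 0.37 in pair-fed and -0.11, -0.32, -0.27, -0.013 and 0.011 in binge livers, with overlap. The difference between its effects was 3.47 ± 0.42 (SE, adjusted p = 4.5e-05). Cyp4a10, Cyp4a12a and the peroxisomal enzyme gene Ehhadh could be tested only with the spots marked by the scanner software kept. They then had 10-day effects of -3.70, -2.56 and -2.77 and 8-week effects of 0.41, 0.0098 and -0.62. The difference for Ehhadh in that setting was 2.15 ± 0.29 (SE, adjusted p = 5.05e-05). It was the 1 called of the 7 fatty acid oxidation genes that needed it. Cyp4a genes are close in sequence, and the probes may share transcripts.

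Acot1, an acyl-CoA thioesterase of the cytosol, stood at 0.79, 1.32 and 0.97 in 10-day pair-fed livers and at -0.88, -0.73 and -1.17 after the binge, with no overlap. The 8-week groups overlapped, from -0.76 to 0.33 in pair-fed and from -0.48 to 0.19 in binge livers. The difference was 1.74 ± 0.43 (SE, adjusted p = 0.0251), and the call was lost without 8-week pair-fed array 2, 10-day pair-fed array 2 or 10-day binge array 1 or 3 (adjusted p up to 0.087). It was the only called member of the 18 fatty acid oxidation genes tested. Of these, 10 fell at 10 days (5 without 10-day binge array 2 and 6 without 10-day pair-fed array 2) and 6 at 8 weeks, and the median effect was -0.61 at 10 days and -0.24 at 8 weeks (-0.14 and -0.16 without 8-week pair-fed array 3 or 4). Ppargc1a, a co-activator of PPAR-alpha, fell at 10 days (-0.69, adjusted p = 0.0202) with a difference of 0.70 ± 0.24 (SE, adjusted p = 0.115), which was not called. Hadha, of the mitochondrial trifunctional protein, had a 10-day effect of -0.61 (adjusted p = 0.0057) and a difference of 0.54 ± 0.19 (SE, adjusted p = 0.13), also not called. Cpt1a, the gate to mitochondrial oxidation, had effects of -0.96 at 10 days and -0.73 at 8 weeks.

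**Figure D2:**
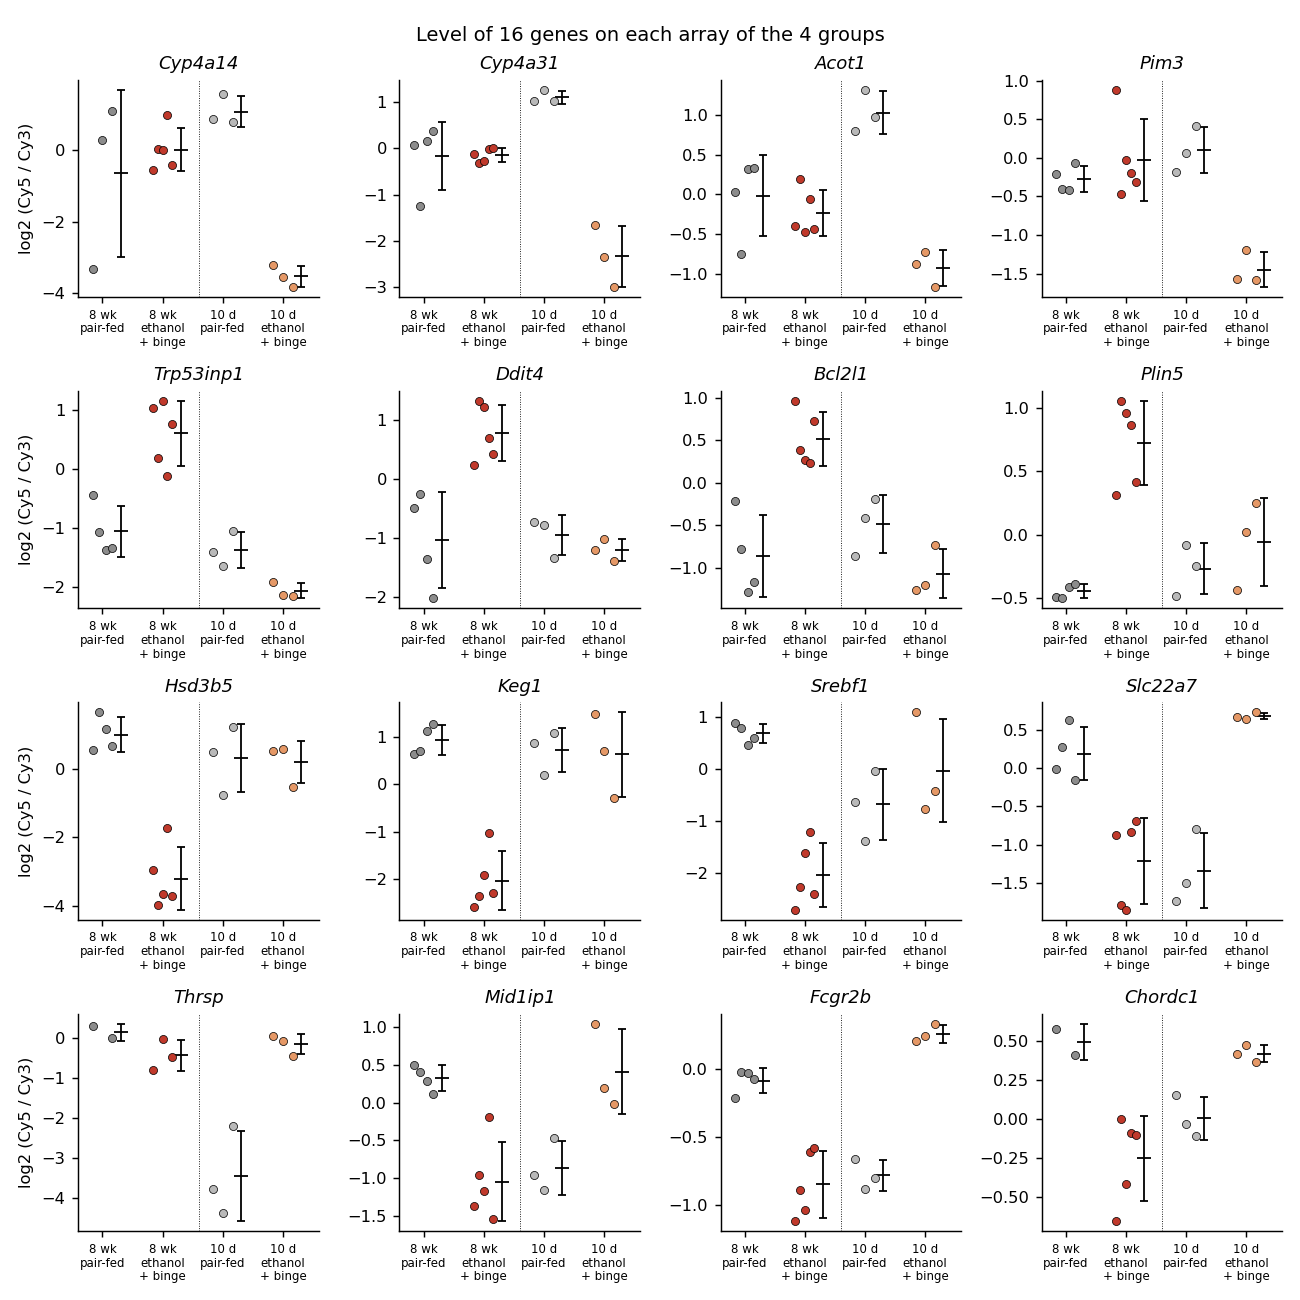
Levels of 16 genes as log2 of Cy5 over Cy3 on each array of the 4 groups, with the group mean and SD beside the points; the dotted line separates the 2 scans. Cyp4a14, Cyp4a31 and Acot1 are low in the 10-day binge group, and Cyp4a31 and Acot1 are also high in the 10-day pair-fed group. Hsd3b5, Keg1 and Srebf1 are low in the 8-week binge group, and Thrsp is low in the 10-day pair-fed group.

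Several genes of fatty acid synthesis had lower effects after 8 weeks, with different groups standing apart from gene to gene. Srebf1 stood at 0.88, 0.78, 0.46 and 0.58 in 8-week pair-fed livers and at -2.71, -2.27, -1.62, -1.21 and -2.41 after the binge, with no overlap. The 10-day values were -0.64, -1.39 and -0.036 in pair-fed livers and 1.08, -0.77 and -0.43 after the binge, where the groups overlapped and binge array 1 was the highest. The 8-week effect was -2.72 (adjusted p = 6.72e-06), the 10-day effect 0.65 (adjusted p = 0.425) and the difference -3.37 ± 0.53 (SE, adjusted p = 0.000373).

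Thrsp, a small nuclear protein that promotes lipogenesis, showed another pattern. It stood at -3.77, -4.36 and -2.19 in 10-day pair-fed livers and at 0.062, -0.065 and -0.43 after the binge, with no overlap. At 8 weeks it stood at 0.30 and -0.0029 (2 arrays measured) in pair-fed and -0.79, -0.024 and -0.46 (3 arrays measured) in binge livers. The 10-day pair-fed arrays alone were low, which gave a 10-day effect of 3.30 (adjusted p = 3.65e-05), an 8-week effect of -0.57 (adjusted p = 0.419) and a difference of -3.87 ± 0.56 (SE, adjusted p = 0.000484).

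Mid1ip1, a relative of Thrsp that activates acetyl-CoA carboxylase, fell at 8 weeks (-1.37, adjusted p = 0.000303) and rose at 10 days (1.27, adjusted p = 0.00831), a difference of -2.64 ± 0.38 (SE, adjusted p = 0.000132). Fasn, the fatty acid synthase, had effects of -1.25 and 1.16 and a difference of -2.42 ± 0.62 (SE, adjusted p = 0.0337). Dgat1, which makes triglyceride from diglyceride, had effects of 0.12 and -0.55 and a difference of 0.67 ± 0.17 (SE, adjusted p = 0.025). Of the 16 lipogenic genes tested (fatty acid and triglyceride synthesis), Srebf1, Thrsp and Fasn had a lower effect after 8 weeks and Dgat1 a higher one, and the median difference was -0.16. Nr1h3, the liver X receptor alpha, fell at 8 weeks (-0.96, adjusted p = 3.65e-05) with a difference of -0.77 ± 0.22 (SE, adjusted p = 0.0503), which was not called. That median was -0.43, -0.25 and -0.088 without 10-day binge array 1, 2 or 3, -0.30 without 10-day pair-fed array 2, -0.40 without 8-week pair-fed array 3, and -0.10 and -0.27 without 8-week binge array 1 or 4. With marked spots kept, 6 more lipogenic genes could be tested, and the median over the 22 was -0.48. Of the 6, Mlxipl, the glucose-responsive factor ChREBP, and the desaturase genes Fads1 and Fads2 differed by -1.53 ± 0.34 (SE, adjusted p = 0.00829), -1.35 ± 0.20 (SE, adjusted p = 0.000141) and -1.05 ± 0.21 (SE, adjusted p = 0.00336). Acly, the ATP citrate lyase, the desaturase gene Scd1 and Lpin2, a phosphatidate phosphatase, were not called (-2.09 ± 0.66, SE, adjusted p = 0.0783, -0.0061 ± 0.95, SE, adjusted p = 0.999 and 0.015 ± 0.49, SE, adjusted p = 0.993). Pklr, the liver pyruvate kinase, differed by -3.03 ± 0.82 (SE, adjusted p = 0.034) in that setting. The call of Fasn was lost without any 1 of 8 arrays (adjusted p up to 0.106) and that of Dgat1 without 8-week pair-fed array 2 or 3, 10-day pair-fed array 2 or 10-day binge array 1 (up to 0.0971).

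Among the 521 called genes, the difference between the effects can be split into a pair-fed part, the 10-day minus the 8-week pair-fed level, and a binge part, the 8-week minus the 10-day binge level. The pair-fed part was the larger one for 133 genes, such as Thrsp and Cyp2c70, and the binge part was at least as large for 388, such as Hsd3b5, Keg1, Srebf1 and Ddit4. Both parts compare arrays of the 2 scans, so that feeding length and scan cannot be told apart in them.

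Genes of a transporter, a bile acid enzyme and a hepatocyte transcription factor were among the largest negative differences. Slc22a7, which encodes the organic anion transporter OAT2, stood at -0.013, 0.28, 0.64 and -0.15 in 8-week pair-fed livers and at -0.87, -1.79, -1.85, -0.83 and -0.69 after the binge. Its levels after 10 days were -1.73, -1.49 and -0.79 in pair-fed and 0.67, 0.65 and 0.73 in binge livers. The groups did not overlap at either length and moved in opposite directions, by -1.40 (adjusted p = 0.000316) and 2.02 (adjusted p = 0.00012), a difference of -3.42 ± 0.39 (SE, adjusted p = 4.5e-05).

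Cyp2c70, the enzyme that makes muricholic acids in mice, stood at -3.31, -3.81 and -2.96 in 10-day pair-fed livers and at 0.58, 0.45 and -0.083 after the binge, with no overlap. The 8-week groups overlapped, at -0.53 and -0.89 (2 arrays measured) in pair-fed and 1.44, -1.96, -1.70, -0.84 and 0.065 in binge livers. The difference was -3.57 ± 0.79 (SE, adjusted p = 0.013), and was not called without 8-week pair-fed array 2 (adjusted p 0.0615). It was the only called member of 15 bile acid genes tested, whose median difference was -0.17 (-0.28 and -0.083 without 10-day pair-fed array 2 or 3 and -0.11 without 8-week pair-fed array 1). With marked spots kept, 18 bile acid genes could be tested, and 2 were called lower and 0 higher. Of those tested only then, Abcb11 differed by -1.20 ± 0.15 (SE, adjusted p = 3.75e-05). Slc10a1 (-0.93 ± 0.27, SE, adjusted p = 0.0501) and Cyp8b1 (0.14 ± 0.43, SE, adjusted p = 0.924) were not called. Apoa4, an apolipoprotein of triglyceride-rich particles, had effects of 2.43 (adjusted p = 0.00841) at 8 weeks and -0.93 (adjusted p = 0.496) at 10 days and a difference of 3.36 ± 0.90 (SE, adjusted p = 0.0435). It was measured on 2 arrays each of the 8-week pair-fed and 10-day binge groups, and the call was lost without any 1 of 11 arrays (adjusted p up to 0.274). Without 10-day binge array 1 or 3, the 2 that measured it in that group, the difference was 1.73 (adjusted p = 0.274) or 4.98 (adjusted p = 0.000761), with the spread of the lone array taken as that of the other groups. Onecut1, the hepatocyte transcription factor HNF6, fell at 8 weeks (-1.40, adjusted p = 0.0144) with a 10-day effect of 1.30 (adjusted p = 0.0752) and a difference of -2.70 ± 0.58 (SE, adjusted p = 0.00946).

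Genes that differ between male and female liver moved in part. Hsd3b5, a hydroxysteroid dehydrogenase typical of male liver, stood at 0.54, 1.65, 1.16 and 0.67 in 8-week pair-fed livers and at -2.94, -3.97, -3.65, -1.71 and -3.72 after the binge. The 8-week groups were far apart, and 3 of the 5 binge arrays had the probe well above background. After 10 days it stood at 0.49, -0.75 and 1.23 in pair-fed and 0.53, 0.59 and -0.51 in binge livers, where the groups overlapped. The 8-week effect was -4.2 (adjusted p = 2.38e-05) and the difference -4.08 ± 0.92 (SE, adjusted p = 0.0119), not called without 10-day pair-fed array 2 (adjusted p 0.053). Keg1, an acyltransferase gene of liver and kidney, stood at 0.64, 0.70, 1.11 and 1.27 in pair-fed and -2.58, -2.35, -1.92, -1.02 and -2.29 in binge livers at 8 weeks, with no overlap. At 10 days it stood at 0.87, 0.20 and 1.08 in pair-fed and 1.47, 0.71 and -0.30 in binge livers, with overlap, and the difference was -2.87 ± 0.62 (SE, adjusted p = 0.00891). Selenbp2, a selenium-binding protein gene, fell at 8 weeks (-1.70, adjusted p = 0.0101) and rose at 10 days (1.61, adjusted p = 0.0201), a difference of -3.32 ± 0.59 (SE, adjusted p = 0.00317).

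Of 15 male-predominant and growth hormone axis genes tested, Hsd3b5 alone was called for the difference, 5 fell at 8 weeks and 0 at 10 days, and the median difference was -0.38. That median was -0.64, -0.66 and -0.63 without 10-day pair-fed array 2 or 3 or 8-week pair-fed array 4, and 3 genes fell at 8 weeks without 8-week pair-fed array 2. With marked spots kept, 1 of 18 was called higher and 2 lower, and 1 fell at 10 days. Of those tested only then, Cyp4a12a differed by 2.57 ± 0.33 (SE, adjusted p = 3.53e-05) and Ghr by -0.76 ± 0.17 (SE, adjusted p = 0.00963). Stat5a was not called (adjusted p = 0.838). Of 12 female-predominant genes tested, Cyp3a16 (1.34 ± 0.31, SE, adjusted p = 0.025) and Cyp3a41a (1.88 ± 0.49, SE, adjusted p = 0.0418) had higher effects after 8 weeks. Cyp3a16 fell at 10 days (-1.33, adjusted p = 0.00224), and the 10-day effect of Cyp3a41a was -1.23 (adjusted p = 0.0627). The calls were lost without any 1 of 8 arrays for Cyp3a16 and of 10 for Cyp3a41a (adjusted p up to 0.111 and 0.138). These 2 genes are close in sequence to other Cyp3a genes, and with marked spots kept Cyp3a11, the main Cyp3a enzyme of mouse liver, differed by 1.95 ± 0.40 (SE, adjusted p = 0.00449).

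Por, the reductase that supplies electrons to cytochromes P450, rose at 8 weeks (0.53, adjusted p = 0.0354) and had an effect of -0.56 at 10 days and a difference of 1.08 ± 0.27 (SE, adjusted p = 0.0241). With Cyp3a16 and Cyp3a41a it made 3 called members of 14 xenobiotic metabolism genes tested, all higher, with a median difference of 0.34. Without 8-week binge array 2 the median was 0.55. Cyp2b10, the marker of activation of the receptor CAR, rose at both lengths, with effects of 3.76 and 3.99 and a difference of -0.23 ± 0.85 (SE, adjusted p = 0.939). Ephx1, the microsomal epoxide hydrolase, rose at 8 weeks (1.63, adjusted p = 0.000477) and had a 10-day effect of 0.042, a difference of 1.58 ± 0.35 (SE, adjusted p = 0.0295), and was the only called member of 22 antioxidant and glutathione genes. The calls of Por and Ephx1 were lost without any 1 of 5 and of 8 arrays (adjusted p up to 0.086 and 0.105). When marked spots were kept, 0 of 24 antioxidant and glutathione genes were called.

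Trp53inp1, Ddit4 and Bcl2l1, named for the size of their differences, rose after 8 weeks with the binge, and none of them rose by the test after 10 days. Trp53inp1, a p53-induced nuclear protein, stood at -0.44, -1.08, -1.38 and -1.34 in 8-week pair-fed livers and at 1.02, 0.18, 1.15, -0.13 and 0.76 after the binge. The 10-day values were -1.42, -1.65 and -1.06 in pair-fed and -1.92, -2.14 and -2.15 in binge livers, and the binge arrays were the lower ones. The groups did not overlap at either length, and the difference was 2.35 ± 0.51 (SE, adjusted p = 0.0111). Ddit4, an inhibitor of the kinase complex mTORC1, stood at -0.50, -0.26, -1.36 and -2.03 in pair-fed and 0.24, 1.33, 1.22, 0.71 and 0.42 in binge livers at 8 weeks, with no overlap. Its levels after 10 days were -0.73, -0.78 and -1.34 in pair-fed and -1.20, -1.02 and -1.39 in binge livers, with overlap, and the difference was 2.07 ± 0.46 (SE, adjusted p = 0.0111). Bcl2l1, which encodes the anti-apoptotic protein Bcl-xL, stood at -0.21, -0.78, -1.29 and -1.17 in pair-fed and 0.96, 0.39, 0.26, 0.23 and 0.73 in binge livers at 8 weeks, with no overlap. After 10 days it stood at -0.86, -0.42 and -0.19 in pair-fed and -1.27, -1.21 and -0.74 in binge livers, with overlap. Its effects of 1.38 (adjusted p = 0.00027) and -0.58 (adjusted p = 0.274) differed by 1.96 ± 0.38 (SE, adjusted p = 0.00296), and its other probe gave 1.24.

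Retreg1, a receptor for the autophagy of endoplasmic reticulum, rose by 1.92 at 8 weeks with an effect of -0.14 at 10 days, a difference of 2.06 ± 0.45 (SE, adjusted p = 0.0119). Pim3, a survival kinase, had an 8-week effect of 0.25 (adjusted p = 0.52) and fell at 10 days (-1.55, adjusted p = 0.000884), a difference of 1.80 ± 0.36 (SE, adjusted p = 0.00393). Gadd45b, a stress-induced signalling protein, rose at 8 weeks (1.39, adjusted p = 2.34e-05) with an effect of -0.17 at 10 days, a difference of 1.56 ± 0.30 (SE, adjusted p = 0.00335). Plk2, a p53 target kinase, had the opposite sign (-0.75 ± 0.17, SE, adjusted p = 0.0122, not called without 10-day pair-fed array 1). These were the 2 called members of 16 cell cycle arrest and p53 target genes, whose median difference was 0.23. Cdkn1a, the arrest gene p21, stood at -2.33, -3.13, -3.37 and -3.07 in 8-week pair-fed livers and at 1.04, 0.93, 1.23, 1.31 and 1.46 after the binge. At 10 days it stood at -2.50, -2.60 and -2.07 in pair-fed and -2.51, -0.011 and 0.44 in binge livers. The 10-day binge array 1 lay among the pair-fed arrays and the other 2 above them. The difference of 2.47 ± 0.86 (SE, adjusted p = 0.127) was not called, and without that array the 10-day effect was 2.61 (adjusted p = 0.0114) and the difference 1.56. Wwox, an oxidoreductase gene, was called at 1.78 ± 0.28 (SE, adjusted p = 0.000594), but its 2 other probes gave -0.13 and 0.19.

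More of the endoplasmic reticulum stress genes rose after 10 days than after 8 weeks. When unfolded proteins build up, sensors such as IRE1, the product of Ern1, switch on chaperones, disulfide isomerases and degradation factors, many of them through a promoter element bound by ATF6 and NF-Y. Of 18 such genes tested, 11 rose at 10 days and 2 at 8 weeks. By sign alone 16 had a lower effect after 8 weeks, and 3 were called lower and 0 higher. The median effect was 0.94 at 10 days and 0.39 at 8 weeks, and the median difference -0.77 against 0.020 over all genes. Without 10-day binge array 2 the median difference was -0.38, 4 genes rose at 10 days and 1 was called lower. Without 10-day pair-fed array 1 or 2, 6 or 7 rose at 10 days, with 1 called lower without array 1. Without 8-week binge array 2, 6 rose at 8 weeks and 12 at 10 days.

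Pdia6, a disulfide isomerase, stood at -0.96, -0.83 and -0.60 in 10-day pair-fed livers and at 0.057, 1.18 and 0.18 after the binge, with binge array 2 the highest. The groups did not overlap. At 8 weeks it stood at -0.17, -0.10, 0.35 and -0.34 in pair-fed and 0.52, -0.86, -0.53, -0.67 and -0.11 in binge livers, with overlap. The difference was -1.53 ± 0.36 (SE, adjusted p = 0.0177), and its 2 other probes gave -1.27 and -1.35. The call was lost without 10-day pair-fed array 1 or 10-day binge array 2 (adjusted p up to 0.069). Edem1, which sends misfolded glycoproteins to degradation, differed by -0.96 ± 0.16 (SE, adjusted p = 0.000701), with -0.96 and -0.50 from its 2 other probes. Ern1 itself differed by -0.90 ± 0.25 (SE, adjusted p = 0.0473), lost without any 1 of 9 arrays (up to 0.297). Creld2, a secreted chaperone-like protein, rose at 10 days (2.58, adjusted p = 0.00514) with an 8-week effect of 0.24 (adjusted p = 0.842) and a difference of -2.34 ± 0.75 (SE, adjusted p = 0.116), not called, or -1.54 without 10-day binge array 2. Its 10-day binge arrays ranged from -0.72 to 2.05. Asns and Trib3, targets of the ATF4 branch, were the 2 members with a positive difference (1.02 ± 0.32, SE, adjusted p = 0.106 and 0.55 ± 0.52, SE, adjusted p = 0.664). With marked spots kept, 1 was called higher and 2 lower of the 25 then tested, and Hspa5, the main chaperone BiP, had effects of 1.97 at 10 days and 0.97 at 8 weeks, a difference of -1.0 ± 0.68 (SE, adjusted p = 0.486).

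The ATF6 and NF-Y element (endoplasmic reticulum stress element), searched as CCAAT and CCACG with 9 bases between them on both strands in the 250 bases before the start of the gene, was found for 8 of the 24 listed genes with a promoter in the RefSeq sequences. It was found in 0.113% of all 32851 such windows. The 8 are Calr, Canx, Creld2, Dnajc3, Hsp90b1, Hspa5, Pdia6 and Syvn1. The upstream sequences of the 4 that were tested on the arrays are shown, with the element in capitals:
Pdia6 (GRCm38.p6, chr12:17266339-17266588, plus strand): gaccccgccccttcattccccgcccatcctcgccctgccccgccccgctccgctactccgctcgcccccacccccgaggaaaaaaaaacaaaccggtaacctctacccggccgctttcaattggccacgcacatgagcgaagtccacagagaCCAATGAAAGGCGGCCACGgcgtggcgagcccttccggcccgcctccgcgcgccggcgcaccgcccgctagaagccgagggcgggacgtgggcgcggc
Creld2 (GRCm38.p6, chr15:88819396-88819645, plus strand): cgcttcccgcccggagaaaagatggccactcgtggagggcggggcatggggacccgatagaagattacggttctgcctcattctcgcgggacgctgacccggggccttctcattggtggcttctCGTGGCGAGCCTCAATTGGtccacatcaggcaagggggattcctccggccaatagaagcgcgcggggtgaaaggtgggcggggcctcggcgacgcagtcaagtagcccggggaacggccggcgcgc
Hsp90b1 (GRCm38.p6, chr10:86705445-86705694, minus strand): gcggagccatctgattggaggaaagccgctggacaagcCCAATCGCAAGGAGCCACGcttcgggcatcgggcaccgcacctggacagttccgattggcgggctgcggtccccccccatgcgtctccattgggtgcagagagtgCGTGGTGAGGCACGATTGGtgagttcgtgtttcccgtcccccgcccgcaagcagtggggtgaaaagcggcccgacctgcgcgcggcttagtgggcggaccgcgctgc
Syvn1 (GRCm38.p6, chr19:6046326-6046575, plus strand): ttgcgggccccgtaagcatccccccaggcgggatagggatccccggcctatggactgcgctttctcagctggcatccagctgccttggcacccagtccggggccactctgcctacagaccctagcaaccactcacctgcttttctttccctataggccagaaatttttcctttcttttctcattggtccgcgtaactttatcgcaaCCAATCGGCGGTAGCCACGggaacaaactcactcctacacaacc
The element lies on the gene's strand for Pdia6 and Syvn1 and on the opposite strand for Creld2, and the Hsp90b1 window holds 2 matches. The differences between the effects were -1.53 for Pdia6, -2.34 for Creld2, -1.0 for Hsp90b1 and -0.85 for Syvn1, a ubiquitin ligase that degrades misfolded proteins, of which the first alone was called. A match is a description of the letters and not a measured binding site.

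Of 13 cytosolic heat shock genes tested, 6 fell after 8 weeks and 0 changed by the test after 10 days. Hspa1a, the inducible HSP70, stood at -0.04, 0.72 and -0.34 (3 arrays measured) in pair-fed and -1.15, -0.89, -1.1, -0.74 and -0.70 in binge livers at 8 weeks. The 10-day values were -0.42, -0.62 and -0.31 in pair-fed and -0.22, 0.15 and 0.12 in binge livers. The groups did not overlap at either length and lay in opposite order, a difference of -1.5 ± 0.29 (SE, adjusted p = 0.00354) with -1.28 and -0.81 from its other probes. Chordc1, a co-chaperone of HSP90, stood at 0.58 and 0.41 (2 arrays measured) in pair-fed and -0.66, 0.0029, -0.41, -0.091 and -0.10 in binge livers at 8 weeks. Its levels after 10 days were 0.16, -0.03 and -0.11 in pair-fed and 0.42, 0.48 and 0.37 in binge livers, again without overlap, and the difference was -1.17 ± 0.20 (SE, adjusted p = 0.00191). Dnajb1, an HSP40, differed by -0.73 ± 0.19 (SE, adjusted p = 0.0408), but its other probe gave -0.18 and the call was lost without any 1 of 9 arrays (adjusted p up to 0.131). These 3 were called lower and 0 higher. The median effect was -0.32 at 8 weeks and 0.13 at 10 days, and the median difference -0.51. Hsph1, an HSP110, fell at 8 weeks (-1.49, adjusted p = 0.00195) with a difference of -1.67 ± 0.48 (SE, adjusted p = 0.0666), not called.

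**Figure D3:**
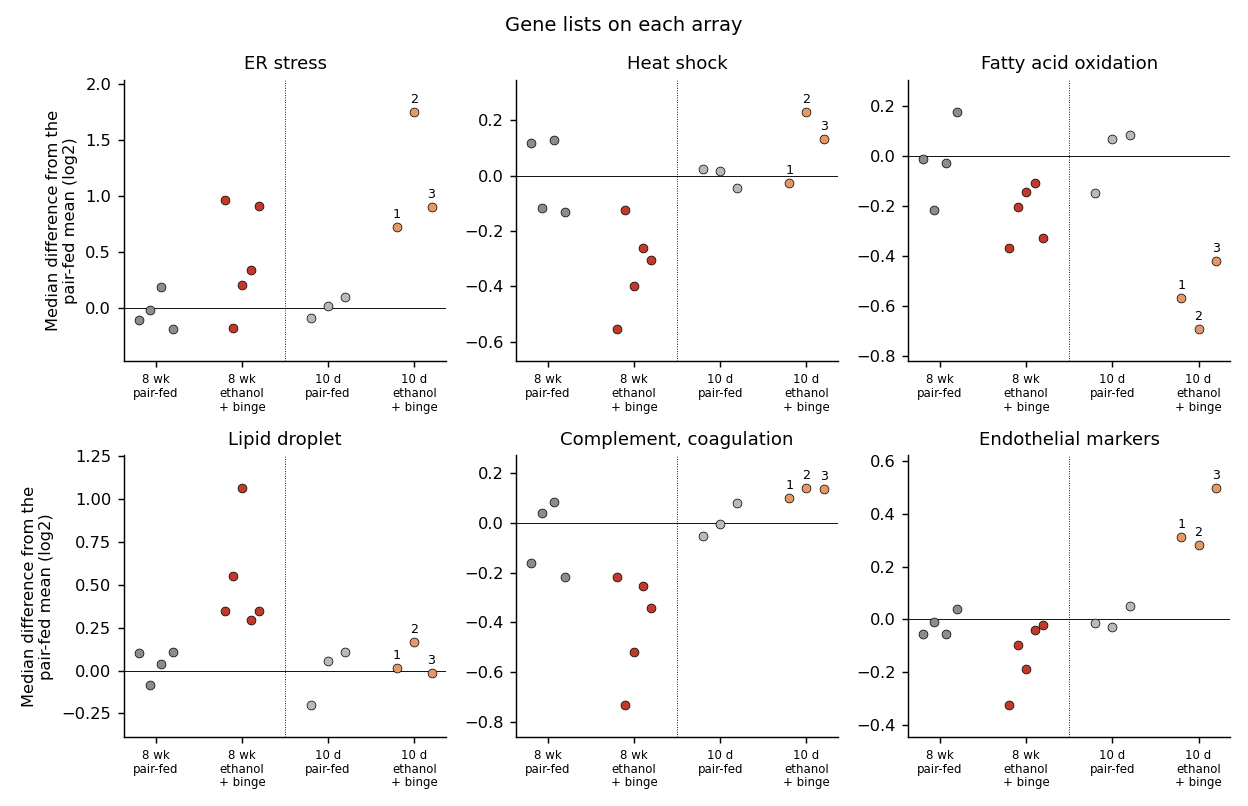
Each point is 1 array: the median over a gene list of the difference from the mean of the pair-fed group of the same feeding length, in log2 units, with the 10-day binge arrays numbered by replicate. The 10-day binge arrays lie above the pair-fed ones for endoplasmic reticulum stress (0.73 to 1.75) and endothelial markers (0.28 to 0.50), and the 8-week binge arrays lie below 0 for heat shock, complement and coagulation and endothelial markers.

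Of 25 acute phase genes tested, 10 rose at 8 weeks and 12 at 10 days, and 0 were called for the difference by limma, with 7 at an unadjusted p under 0.05. On the 10-day binge arrays their median stood 0.62, 1.63 and 1.80 above the pair-fed mean, lowest on array 1. Without that array 16 rose at 10 days, and the median difference between the effects went from -0.51 to -1.0. Without 10-day binge array 2 or 3, 1 rose at 10 days and the median was -0.31 or -0.33. Without 10-day pair-fed array 1, 2 or 3, 4, 5 or 7 rose, and without 8-week binge array 1 or 2 the median was -0.78 or -0.14. Saa3, an acute phase protein of macrophages and fat, stood at -4.32, -4.65 and -5.06 in 10-day pair-fed livers and at -2.48, 1.6 and 2.20 after the binge. At 8 weeks it ranged from -5.43 to -0.89 in pair-fed and from -4.65 to 1.61 in binge livers, and the difference was -3.64 ± 1.65 (SE, adjusted p = 0.271). Cebpd, a transcription factor of the acute phase, and Hamp2, a hepcidin gene, differed by 1.09 ± 0.32 (SE, adjusted p = 0.0616) and -1.96 ± 0.60 (SE, adjusted p = 0.0754), neither called.

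Of 17 complement and coagulation genes tested, 8 fell at 8 weeks (5 without 8-week pair-fed array 2) and 0 at 10 days. By sign alone, 15 had a lower effect after 8 weeks, with a median difference of -0.53. The coagulation factor genes F11, F10 and F2 were called (-1.20 ± 0.29, SE, adjusted p = 0.0203, -0.85 ± 0.19, SE, adjusted p = 0.0153 and -0.51 ± 0.14, SE, adjusted p = 0.0444). Of the list 7 were called lower without 8-week binge array 4 and 1 without 10-day pair-fed array 2. F10 stood at 0.11, 0.18 and -0.0083 (3 arrays measured) in 8-week pair-fed livers and at -0.51, -1.02, -0.99, -0.29 and -0.73 after the binge, with no overlap. After 10 days it stood at -0.16, -0.061 and -0.12 in pair-fed and -0.13, -0.10 and 0.022 in binge livers, with overlap. The call of F11 was lost without 10-day pair-fed array 2 or 10-day binge array 2 and that of F2 without any 1 of 10 arrays (adjusted p up to 0.0894 and 0.117). Ttr, the thyroid hormone carrier transthyretin, was the called member of the 9 hepatocyte markers (-1.31 ± 0.31, SE, adjusted p = 0.0216). It was not called without 10-day pair-fed array 1 or 2 or 10-day binge array 1 or 2 (up to 0.0735).

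Cd14, the co-receptor for bacterial lipopolysaccharide, rose at 8 weeks and not at 10 days. It stood at -0.95, -2.04, -2.60 and -2.18 in 8-week pair-fed livers and at 1.03, -0.084, 1.12, -0.14 and -0.12 after the binge, with no overlap. At 10 days it stood at -1.52, -1.33 and -0.83 in pair-fed and -1.18, -0.77 and -0.96 in binge livers, with overlap. The difference of 2.04 ± 0.51 (SE, adjusted p = 0.0244) was not called without 8-week pair-fed array 3, 10-day pair-fed array 2 or 3 or 10-day binge array 1 (adjusted p up to 0.0739). Of 25 inflammation, chemokine and adhesion genes tested it was the 1 called higher. The 2 called lower, Cxcl9 and Cxcl10, were not well above background on any 10-day pair-fed array, so their 10-day effects have only a bound and no fold is given.

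Of 24 interferon-stimulated genes tested, 9 fell at 8 weeks (5 without 8-week pair-fed array 1) and 0 at 10 days. For the difference 3 were called lower and 0 higher, with a median of -0.31. Psmb8, an immunoproteasome subunit, stood at 0.72, 0.12, -0.019 and -0.036 in pair-fed and -0.60, -0.61, -0.52, -0.76 and -0.69 in binge livers at 8 weeks, with no overlap. The 10-day values were -0.47, -0.16 and -0.098 in pair-fed and -0.16, 0.034 and 0.13 in binge livers, with overlap. The difference was -1.08 ± 0.21 (SE, adjusted p = 0.00416), with -1.01 from its other probe. Stat2, of interferon signalling, differed by -0.95 ± 0.25 (SE, adjusted p = 0.038), lost without any 1 of 10 arrays (adjusted p up to 0.101). Tap1, the peptide transporter of antigen presentation, differed by -2.07 ± 0.29 (SE, adjusted p = 8.96e-05) and belongs to the group of genes with a shared array profile described further on.

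Of 12 markers of the endothelial cells that line liver vessels, 5 were called lower after 8 weeks and 0 higher. By sign alone, 8 had a lower effect after 8 weeks and 4 a higher one, with a median difference of -0.36. At 8 weeks 2 of the 12 rose and 3 fell, and at 10 days 4 rose and 0 fell. Without 10-day binge array 1 or 3, 10-day pair-fed array 1 or 8-week pair-fed array 4, 3 were called lower. In whole liver, fewer cells of a type and less RNA per cell cannot be told apart. Fcgr2b, an Fc receptor of sinusoidal endothelium, stood at -0.21, -0.017, -0.028 and -0.071 in 8-week pair-fed livers and at -1.12, -0.89, -1.04, -0.61 and -0.58 after the binge. Its levels after 10 days were -0.66, -0.88 and -0.80 in pair-fed and 0.21, 0.25 and 0.34 in binge livers. The groups did not overlap at either length and moved in opposite directions, a difference of -1.81 ± 0.27 (SE, adjusted p = 0.000191), while its 2 other probes gave -0.67 and -0.68. Clec4g, a lectin of the same cells, fell at 8 weeks (-0.79, adjusted p = 0.000388) and rose at 10 days (0.73, adjusted p = 0.0102), a difference of -1.53 ± 0.22 (SE, adjusted p = 0.000182). Stab1, the scavenger receptor stabilin 1, differed by -0.84 ± 0.19 (SE, adjusted p = 0.0107), but its other probe gave -0.12. Eng, the co-receptor endoglin, differed by -0.78 ± 0.20 (SE, adjusted p = 0.0274). Kdr, the VEGF receptor 2, differed by -1.06 ± 0.28 (SE, adjusted p = 0.0354).  The median over the 12 stood 0.31, 0.28 and 0.50 above the pair-fed mean on the 10-day binge arrays and at -0.32, -0.098, -0.19, -0.04 and -0.021 on the 8-week binge arrays. The call of Eng was lost without 8-week pair-fed array 4, 10-day pair-fed array 1 or 10-day binge array 1 or 3 (adjusted p up to 0.106) and that of Kdr without any 1 of 10 arrays (up to 0.0974).

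Cd5l, a secreted macrophage protein, was the 1 called of 12 macrophage markers (-1.15 ± 0.23, SE, adjusted p = 0.00494), whose median difference was -0.49. Among 13 stellate cell and matrix markers Reln was called (-0.79 ± 0.19, SE, adjusted p = 0.0155), but not without 10-day pair-fed array 1 or 10-day binge array 3. By sign alone, 7 of the 13 had a higher effect after 8 weeks and 6 a lower one, with a median difference of 0.057. Among 14 lymphocyte markers Cd3g (-1.28 ± 0.29, SE, adjusted p = 0.0127) and Nkg7 (-1.1 ± 0.22, SE, adjusted p = 0.00512) were called, Cd3g not without 10-day pair-fed array 2. By sign alone, 7 of the 14 had a higher effect after 8 weeks and 7 a lower one, with a median difference of 0.0043. Nkg7 belongs to the group of genes with a shared array profile described further on. Alas2, the haem synthesis enzyme of red cell precursors, was the 1 called of 9 red cell and neighbouring tissue markers (-1.33 ± 0.32, SE, adjusted p = 0.0179), not called without 10-day pair-fed array 1 or 2 or 10-day binge array 3. The median difference of the 9 was 0.17, with 5 above 0 and 4 below. Of 10 neutrophil and 7 cholangiocyte markers 0 were called by limma, with 2 and 0 at an unadjusted p under 0.05.

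Metallothioneins bind zinc and are induced by stress hormones. Mt1 rose at both lengths, and Mt2 rose at 8 weeks with a 10-day effect of 1.94 (adjusted p = 0.061). Mt1 stood at -3.97, -2.92, -3.24 and -4.26 in 8-week pair-fed livers and at 2.88, 0.79, 2.21, 1.5 and 2.40 after the binge. After 10 days it stood at -1.45, -2.36 and -2.16 in pair-fed and -0.17, 1.28 and 1.36 in binge livers, with no overlap at either length. The 8-week effect of 5.55 (adjusted p = 2.37e-07) and the 10-day effect of 2.82 (adjusted p = 0.00443) differed by 2.74 ± 0.77 (SE, adjusted p = 0.0506), and those of Mt2 by 2.84 ± 0.83 (SE, adjusted p = 0.0645), neither called. Slc30a10, a manganese exporter of hepatocytes, moved the other way, with effects of 0.25 (adjusted p = 0.515) and 1.79 (adjusted p = 0.000153), a difference of -1.54 ± 0.35 (SE, adjusted p = 0.0127), and was the only called member of 8 zinc handling genes. With marked spots kept, 2 of these 8 genes were called higher and 1 lower.

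With marked spots removed, hormone-responsive and rhythmic genes gave few calls. Fkbp5, a co-chaperone induced by glucocorticoids, rose at 8 weeks (1.31, adjusted p = 1.65e-05) with an effect of 0.17 at 10 days, a difference of 1.14 ± 0.27 (SE, adjusted p = 0.0186). Its other probes gave 1.68 and 1.70, and the call was lost without 10-day pair-fed array 1 or 2 or 10-day binge array 1 (adjusted p up to 0.0727). Of 13 gluconeogenic, fasting and glucocorticoid genes it was the 1 called higher. With marked spots kept, 4 of 17 genes of this list were called higher and 4 lower. The gluconeogenic genes G6pc and Fbp1 fell at 8 weeks (-2.21, adjusted p = 0.00417 and -0.67, adjusted p = 0.00296), with differences of -2.37 ± 0.71 (SE, adjusted p = 0.0728) and -0.79 ± 0.22 (SE, adjusted p = 0.0534), not called. Ciart, a repressor of the clock, was the 1 called of 19 clock genes (1.17 ± 0.28, SE, adjusted p = 0.0185), though not without 10-day pair-fed array 1 or 10-day binge array 1. Zfp36, which destabilises messages of cytokines, was the 1 called of 16 immediate early genes (0.89 ± 0.24, SE, adjusted p = 0.0418, lost without any 1 of 7 arrays). Both fell at 10 days (-1.23, adjusted p = 0.000834 and -0.80, adjusted p = 0.01).

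With marked spots removed, no difference between the feeding lengths was called for 5 further groups by limma: cholesterol synthesis and uptake (0 of 20, 3 at an unadjusted p under 0.05), alcohol and aldehyde metabolism (0 of 11, 3), urea cycle and amino acid catabolism (0 of 12, 4), respiratory chain subunits (0 of 19, 1) and proliferation (0 of 17, 1). With them kept, 3 of 21 urea cycle and amino acid genes were called higher and 1 lower, and the other groups had 0 called. Alcohol and aldehyde metabolism genes fell for 6 of 11 at 8 weeks and 2 of 11 at 10 days, with medians of -0.57 and -0.13. A p that misses the threshold does not show that values did not differ.

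**Figure D4:**
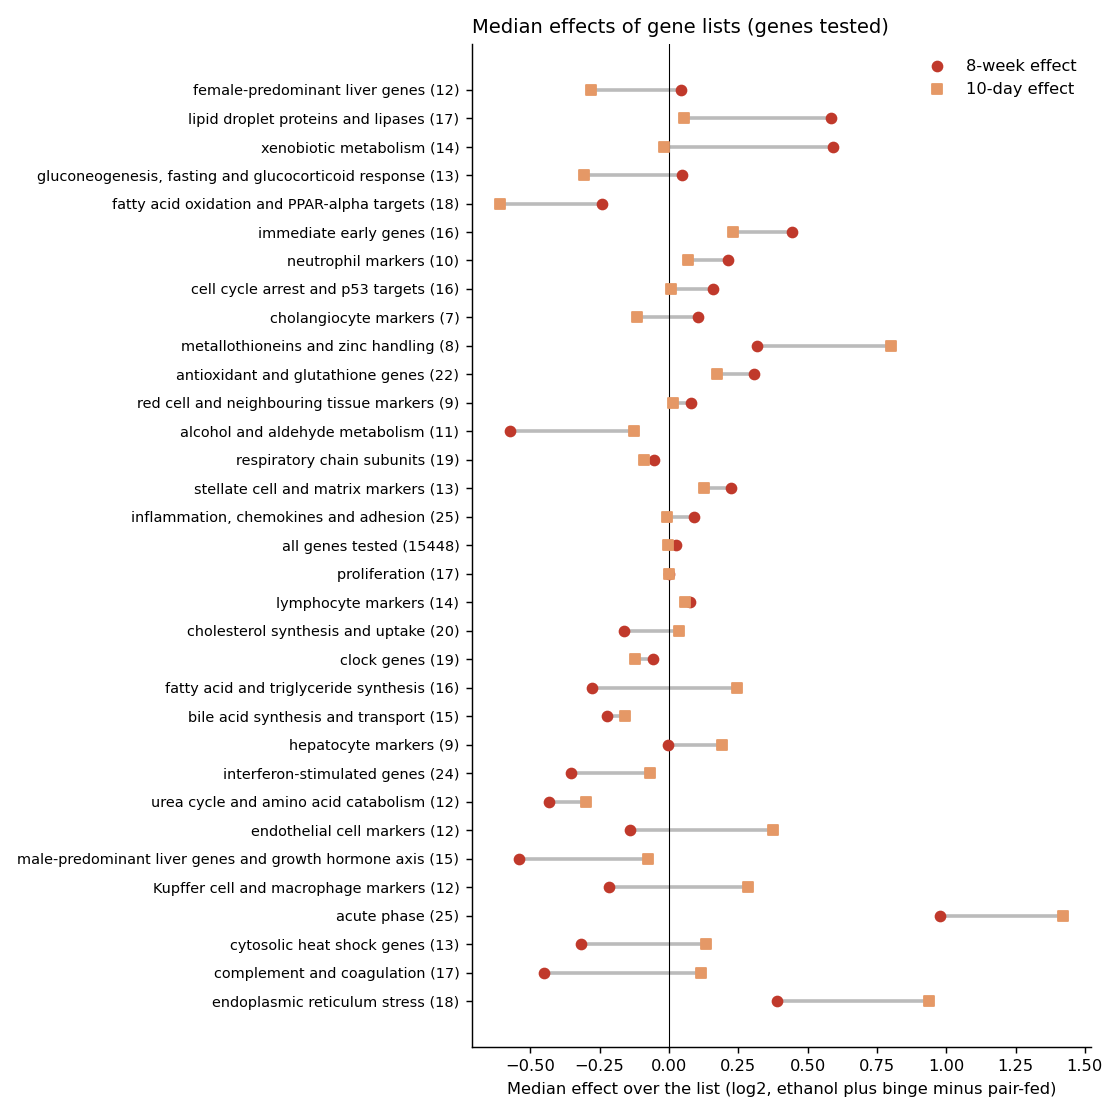
Median 8-week effect (red circles) and 10-day effect (orange squares) of each gene list with the number of genes tested, in log2 units, ordered by the median difference between the effects; the pair of Cyp4a genes is left out for its size. Endoplasmic reticulum stress has the lowest median difference, and the row of all genes lies near 0 at both lengths.

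Some of the called genes shared 1 profile over the arrays. Of the 374 genes with a lower effect after 8 weeks, 81 had a level that correlated with that of Nlrp10, an inflammasome-related gene, at r over 0.8 across the 24 arrays of the series, a relation found after the values were seen and given as a description. Their median stood at -1.03, -1.20 and -0.89 on the 10-day pair-fed arrays and at 0.13, 0.46 and 0.39 on the 10-day binge arrays, against -0.79 to 0.096 in 8-week pair-fed livers and -0.80 to -0.28 after the binge. They include Nlrp10 (-2.49 ± 0.30, SE), the neurokinin receptor gene Tacr2 (-2.51 ± 0.30, SE), 3 olfactory receptors, Tap1, Nkg7 and Edem1. For 46 of them 54 other probes of the same gene could be read. The median difference between the effects was -1.77 for the probes used and -0.012 for the other probes, and 30 of 54 had the same sign. For 150 other called genes with 191 other probes, 161 other probes had the same sign, the medians were -0.58 and -0.20, and 112 of the 191 reached at least 50% of the value of the probe used. The other probe of Nlrp10 gave -0.062. Leaving out all 83 genes with this profile gave 374 called genes, 121 higher and 253 lower, an alternative chosen after the data were seen. What sets the profile was not tested.

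**Figure D5:**
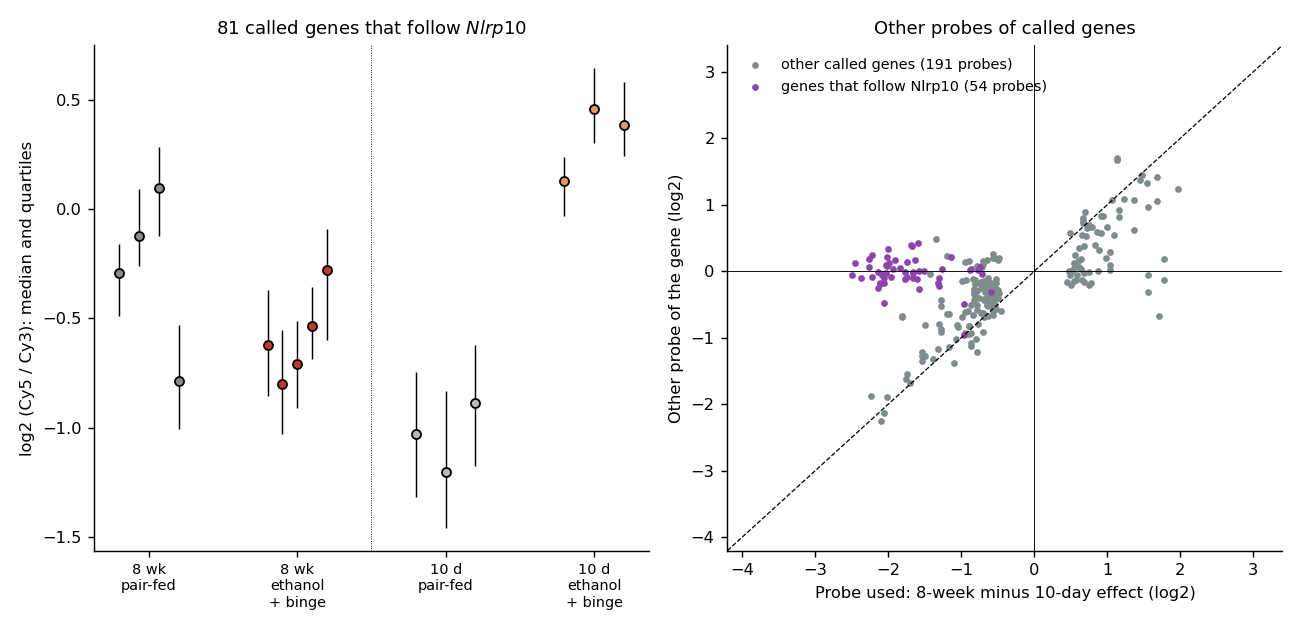
Left, the median level (log2 of Cy5 over Cy3) and quartiles of the 81 called genes that follow Nlrp10 on each array of the 4 groups; right, the difference between the effects from the probe used for each called gene (horizontal axis) against that from each other probe of the gene (vertical axis). The 10-day pair-fed arrays are lowest and the 10-day binge arrays highest on the left, and on the right the 54 other probes of those genes have a median of -0.012 against -1.77 for the probes used, while 112 of the 191 other probes of other called genes reach at least 50% of the value of the probe used (dashed line, equal values).

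All 521 genes kept the sign of the difference when each of the 15 arrays was left out in turn, and 234 stayed called every time. The count fell to 341 and 329 without 10-day pair-fed arrays 1 and 2. With the slide as a fixed block, where the 10-day effect rests on the 2 slides that held both 10-day groups, all 521 kept their sign and 177 stayed called. Of the 60 called genes named above, 23 stayed called in that fit, Cyp4a14, Cyp4a31, Ddit4, Bcl2l1, Cyp3a41a, Slc22a7, Srebf1, Selenbp2, Onecut1, Mid1ip1, Tacr2, Nlrp10, Pnpla2, Edem1, Chordc1, Tap1, Fcgr2b, Clec4g, Stab1, Cd5l, Cd3g, Nkg7 and Alas2. Among them Tacr2, Nlrp10, Edem1, Tap1 and Nkg7 belong to the shared profile. Within slides, the 10-day difference of Cyp4a14 was -5.13 and -4.63 on those 2 slides, and its 8-week difference 3.36, -0.26 and -1.51 on the 8-week slides that measured both groups. For Slc22a7 the values were 2.14 and 1.52 and -2.07, -2.49, -0.55 and -0.82, and for Srebf1 0.62 and -0.39 and -3.05, -2.09, -3.0 and -2.09. The differences between the effects with the slide block were 5.39 (adjusted p = 0.0324) for Cyp4a14, -3.23 (adjusted p = 0.00579) for Slc22a7 and -2.76 (adjusted p = 0.0124) for Srebf1, against -3.80 (adjusted p = 0.114) for Hsd3b5 and -4.04 (adjusted p = 0.0725) for Cyp2c70. Precision is limited by the number of arrays, 3 to 5 a group.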

How the data were processed

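The 24 livers were hybridised to Agilent 2-colour arrays with Cy5 for the liver and Cy3 for the reference, per the labels. Spot intensities (median signal and local background) were deposited as scanner output, made with Agilent Feature Extraction 11.5.1.1 per the file headers. The deposited log10 ratios of the same files were background-subtracted and dye-normalised by that software, per the file headers, and the series table of log2 ratios, whose steps are not given in the sources used here, matched them in scale and direction; both were used as alternatives.

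Intensities were corrected with normexp (offset 50) and normalised by loess within each array in limma 3.58.1 (R 4.3.3). Control spots had weight 0 in loess, spots marked as outliers were removed and replicate spots averaged. A probe was kept if 3 or more arrays had it well above background in Cy5 (36648 of 41174), and 24375 of the 41174 had 1 gene symbol. The brightest probe stood for a gene, and a gene was tested if every one of the 4 groups had 2 or more values (15448 genes). All p-values are from 1 limma fit with empirical Bayes over the 6 groups (24 arrays), adjusted by Benjamini-Hochberg over all genes tested, called under 0.05. Each effect keeps to the arrays of 1 scan. Adjusted p-values beside named arrays come from the fit without them. A probe below background on all arrays of a group has only a bound, and no fold is given for it.

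Named genes are Cidec, the 12 largest called differences each way and, for each of 33 lists, up to 4 called members and 2 others with the lowest adjusted p; the text gives part of these, and some results are not reported here. Members and lists were chosen with earlier results of these data known. The alternatives changed the normexp offset, normalisation, channel, filter, marked spots, probe choice, arrays fitted and blocks, and the script was tested on simulated data.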

Additional observations from a re-analysis of the deposited data

Results flagged for a closer look

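The genes below were singled out because the effect of ethanol plus a binge differed between the feeding lengths by the test of that difference in limma (8-week minus 10-day effect, log2, adjusted over all genes tested). The effect was higher after 8 weeks, by at least 2 log2 units, for Cyp4a14 (5.29), Cyp4a31 (3.47), Apoa4 (3.36), Trp53inp1 (2.35), Ddit4 (2.07), Retreg1 (2.06) and Cd14 (2.04). It was higher by 1 to 2 units for Bcl2l1 (1.96), Cyp3a41a (1.88), Pim3 (1.80), Wwox (1.78), Acot1 (1.74), Plin4 (1.62), Ephx1 (1.58), Gadd45b (1.56), Pnpla2 (1.55), Cyp3a16 (1.34), Ciart (1.17), Fkbp5 (1.14) and Por (1.08). It was higher by less than 1 unit for Plin5 (0.96), Zfp36 (0.89) and Dgat1 (0.67). The effect was lower after 8 weeks, by at least 2 units, for Hsd3b5 (-4.08), Thrsp (-3.87), Cyp2c70 (-3.57), Slc22a7 (-3.42), Srebf1 (-3.37), Selenbp2 (-3.32), Keg1 (-2.87), Onecut1 (-2.70), Mid1ip1 (-2.64), Tacr2 (-2.51), Nlrp10 (-2.49), Fasn (-2.42) and Tap1 (-2.07). It was lower by 1 to 2 units for Fcgr2b (-1.81), Slc30a10 (-1.54), Pdia6 (-1.53), Clec4g (-1.53), Hspa1a (-1.5), Alas2 (-1.33), Ttr (-1.31), Cd3g (-1.28), F11 (-1.20), Chordc1 (-1.17), Cd5l (-1.15), Nkg7 (-1.1), Psmb8 (-1.08) and Kdr (-1.06). It was lower by less than 1 unit for Edem1 (-0.96), Stat2 (-0.95), Ern1 (-0.90), F10 (-0.85), Stab1 (-0.84), Reln (-0.79), Eng (-0.78), Plk2 (-0.75), Dnajb1 (-0.73) and F2 (-0.51). Tacr2, Nlrp10, Tap1, Nkg7 and Edem1 belong to the shared profile described above, which most other probes of the same genes did not show.

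In 7 of 122 groups of 4 or 5 arrays examined for the named genes, 1 array lay far from the others, and chance gives about 1 in 20. Abhd5 stood at 0.46 on 8-week binge array 5 and between 0.036 and 0.092 on the others of that group. Alas2 stood at 0.81 on 8-week pair-fed array 4 and between 0.48 and 0.53 on the others of that group. Saa3 stood at -5.43 on 8-week pair-fed array 4 and between -1.51 and -0.89 on the others of that group. Eng stood at -0.81 on 8-week binge array 1 and between -0.24 and -0.045 on the others of that group. Retreg1 stood at 1.83 on 8-week binge array 1 and between 0.49 and 0.59 on the others of that group. F11 stood at -1.41 on 8-week binge array 2 and between -0.35 and -0.19 on the others of that group. For Abhd5 pair-fed livers also differed, with -0.62 on 8-week pair-fed array 1 and between -0.43 and -0.41 on the others of that group.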

How the results depend on the processing

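The count of 521 genes called for the difference between the effects fell to 162 with median centring in place of loess, to 202 with the Cy5 channel alone and to 187 with the slide as a fixed block. It lay between 374 and 696 under the other 12 settings, the lowest with the genes of 1 shared profile left out, a setting added after the data were seen. A fit of the 15 arrays of the 4 groups alone called 378 genes, and 42 of the 60 named called genes. The named genes lost in it include Plin5, Cyp2c70, Pdia6, F11, Ttr, Stab1 and Reln. The count of the 8-week effect (2547) was 1230 with median centring and 1516 with Cy5 alone. That of the 10-day effect (1094) was 356 with median centring, with 72.2% of calls higher against 59.4%, 402 with Cy5 alone, 574 with the slide as a fixed block and 1782 with array weights. Leaving out 1 array at a time gave 329 to 652 genes for the difference, 1975 to 2710 for the 8-week and 515 to 1315 for the 10-day effect. The difference gave 341 and 329 genes without 10-day pair-fed arrays 1 and 2, and the 10-day effect 560 and 665 without these and 515 without 10-day binge array 2. The cause of these shifts was not tested. All 60 named called genes kept their sign under the 14 settings planned, and 11 were called in each: Cyp4a14, Cyp4a31, Ddit4, Slc22a7, Srebf1, Mid1ip1, Tacr2, Nlrp10, Tap1, Fcgr2b and Clec4g. Of these 11, Tacr2, Nlrp10 and Tap1 belong to the shared profile. Other probes of genes of that profile had a median difference of -0.012 against -1.77 for the probes used. Replicate numbers were not used to pair the samples in the main fit. Deviations from the group means correlated at r from -0.23 to 0.29 over 7 pairs of the same number. Over 22 pairs of other numbers r lay between -0.36 and 0.36. So few pairs cannot exclude a pairing, and at both lengths the pairs numbered 2 and 3 shared a slide. The fit with the replicate block called 497 genes for the difference, 2540 for the 8-week and 1156 for the 10-day effect, and 52 of the 60 named genes. Dim probes near background and the 710 genes left untested for marked spots limit the measurements.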
